A study of Saccharomyces cerevisiae with 10 samples.

Results

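The comparison set 9 h of a spruce hydrolysate feed against 9 h of a sugar feed in the yeast Saccharomyces cerevisiae, strain TMB3500. It used 4 of the 10 arrays of the series, the 2 biological replicates of each feed at 9 h, and every named S. cerevisiae gene with a probe set on the array (5654 of 5654 genes, 112 of them with a probe set shared with a copy). For a gene with several probe sets, the brightest over all arrays was taken. Cells grew in aerated batch cultures on glucose at 30 °C and pH 5, and the feed was then started at 0.04 L/h and raised over 16 h to 0.1 L/h. The first feed was a spruce hydrolysate that had not been detoxified and had been brought to pH 4.7, and the second was a mixture of glucose, mannose and xylose set to similar sugar levels. The labels do not mention galactose for either feed. The series also holds 2 arrays each from the start of the feed (0 h) and from 18 h of both feeds. They share the estimate of spread here and give the levels before and after. The labels give no mating type or ploidy for the strain, and nothing beyond the words biological replicates on how the replicates were kept apart. The p-values therefore measure the spread between these replicate arrays, pooled over all 5 groups.

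A hydrolysate made from wood carries, beside sugars, weak acids, furan aldehydes and phenolic compounds formed during its preparation. Yeast is known to reduce such aldehydes with NADPH-dependent reductases, to export toxic compounds through multidrug transporters, and to raise antioxidant genes through the regulator Yap1. Its sugar genes answer to the sugar at hand: the galactose genes are kept low without galactose and held down by glucose, and their products import galactose, phosphorylate it and convert it to a glucose phosphate.

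Levels are log2 array intensities, so a difference of 1 is a change of 2-fold. A gene is called where the limma adjusted p was under 0.05, and background on an array is the level that 95% of 5028 probe sets for another yeast, Schizosaccharomyces pombe, did not exceed (4.67 to 4.9). Between 97.2% and 98.6% of genes exceeded it on each array. Differences of 2-fold or more between replicates numbered 201 on hydrolysate and 53 on sugar at 9 h. They numbered 97 on hydrolysate and 9 on sugar at 18 h, and 180 at the start. The limma fit takes a single spread per gene for all groups, so p-values at 9 h do not carry this inequality. The difference between the 3′ and 5′ signal of 8 control genes averaged 0.96 ± 0.049 on hydrolysate and 0.669 ± 0.003 on sugar (log2, SD, n = 2 each), and its part in the results was not tested. Of 24 markers of mating type, haploid state and meiosis, 22 were not called and 2, AFB1 (1.11) and DIT1 (1.03), were called higher on hydrolysate.

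limma called 547 of 5654 genes (9.67%), 326 higher (5.77%) and 221 lower (3.91%) on hydrolysate. In 185 of them the groups differed at least 2-fold, and in 33 at least 4-fold, 22 higher and 11 lower. All 547 had both arrays of one feed above both of the other, which held for 1876 genes in the direction of hydrolysate (33.2%) and for 1812 in the direction of sugar (32%). Few calls held in every fit with 1 array at 9 h left out: 24 genes (0.424%) were called with all arrays and again without each of the 4 arrays at 9 h in turn, and the other 523 lost the call without at least 1 of them. Of these 24 genes, 18 were higher and 6 lower, and all differed at least 2-fold. Their probe sets were shared with a near-identical copy in 5 cases (AAD4, CUP1-1, YPL277C, YPL278C and THI13), so those levels belong to the copies together. Counts of list members below stand beside the shares of all genes called, 5.77% higher and 3.91% lower. Counts without an array come from fits with 1 array in a group. They have to be read beside the number of all genes called in the same fit, given in the section on processing.

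**Figure D1:**
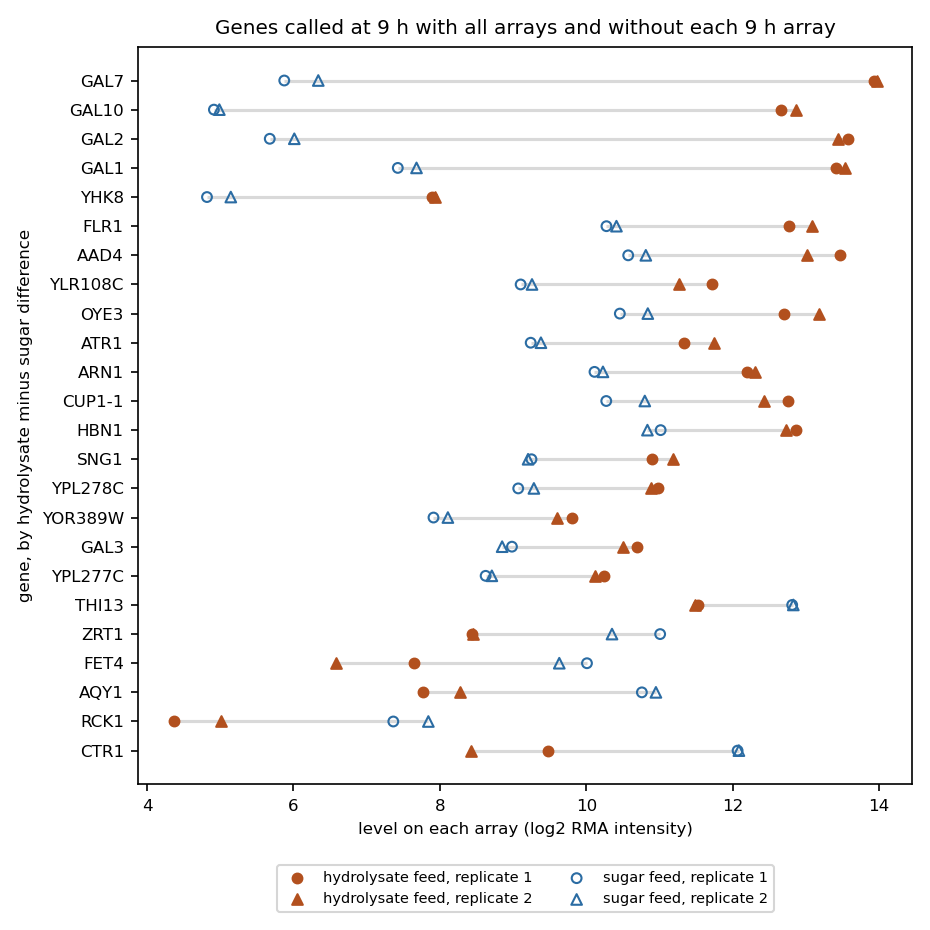
Level of the 24 genes called with all arrays and without each array at 9 h, as log2 intensity on each array, ordered by the difference; filled marks are hydrolysate arrays and open marks sugar arrays, with a circle for replicate 1 and a triangle for replicate 2. The filled marks of GAL7, GAL10, GAL2 and GAL1 lie between 12.66 and 13.97 and their open marks between 4.91 and 7.68; in no gene do the marks of the feeds overlap.

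The galactose pathway held the largest differences of the comparison. GAL2, the permease that imports galactose, was at 13.58 and 13.43 on hydrolysate, against 5.68 and 6.01 on sugar. GAL1, the galactokinase of the first step, was at 13.41 and 13.54 on hydrolysate, against 7.43 and 7.68 on sugar. GAL7, the transferase of the second step, was at 13.93 and 13.97 on hydrolysate, against 5.87 and 6.34 on sugar. Both hydrolysate arrays thus stood far above both sugar arrays in each of these genes. GAL10, which makes both the epimerase and the mutarotase of the pathway, was at 12.66 and 12.86 on hydrolysate, against 4.91 and 4.99 on sugar, just above the background of those arrays. The differences were 7.84 for GAL7, 7.81 for GAL10, 7.66 for GAL2 and 5.92 for GAL1 (standard errors 0.23 to 0.28, limma adjusted p between 9.71e-07 and 2.99e-06). These are 230-fold, 224-fold, 202-fold and 60.5-fold, and they moved by little without any single array: GAL7, for instance, stayed between 7.61 and 8.08 over all 20 alternative settings.

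The regulators of the pathway moved less. GAL3, the sensor that binds galactose and releases the pathway from repression, was at 10.70 and 10.50 on hydrolysate, against 8.98 and 8.85 on sugar, a difference of 1.68 (SE 0.17, limma adjusted p = 0.00192). GAL80, the repressor bound by the GAL3 product, was at 10.16 and 10.40 on hydrolysate, against 9.21 and 9.06 on sugar. Its difference of 1.15 was called (limma adjusted p = 0.0155), and the call was lost without sugar replicate 1 or 2 (adjusted p up to 0.0925). GCY1, a reductase gene long known to respond to galactose, rose by 0.63. The groups did not overlap in any of these 3 genes. PGM2, the phosphoglucomutase that links the pathway to glycolysis, was at 12.94 and 13.34 on hydrolysate, against 13.10 and 12.91 on sugar, so that the arrays overlapped (limma adjusted p = 0.614). LAP3, a protease gene also named GAL6, did not pass the test either (0.00, adjusted p = 0.987). In all, 4 of 5 genes for galactose uptake and conversion and 3 of 7 regulators and further galactose-linked genes were higher, and none lower, against 5.77% of all genes called higher. The 3 became 2 without hydrolysate replicate 1 and 1 without either sugar array, while the 4 were called without each array.

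GAL7, GAL10 and GAL1 lie next to each other on chromosome II (274427 to 280607, in the coordinates of the authors' deposited table, whose genome build is not stated). Among the measured genes, GAL3 on chromosome IV stands between SOK1, a kinase-related gene, and SNQ2, a multidrug transporter gene (458542 to 470424). All 3 were called higher (SOK1 0.70, SNQ2 1.28), and reading frames that were not measured can lie between them. SOK1 was singled out for its place after its value was seen.

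At the other times sampled the galactose genes were at lower levels than at 9 h of the hydrolysate feed. GAL7 averaged 7.59 ± 0.36 at the start, 13.95 ± 0.03 at 9 h of hydrolysate and 8.40 ± 0.25 at 18 h of hydrolysate (SD, n = 2 each). On sugar it averaged 6.11 ± 0.33 at 9 h and 9.27 ± 0.30 at 18 h. At 18 h the differences between hydrolysate and sugar were -0.87 for GAL7 and -1.08 for GAL1, 1.49 for GAL10, 1.16 for GAL2, -0.37 for GAL3 and -0.60 for GAL80. At that time 2 of the 5 genes for galactose uptake and conversion were called higher on hydrolysate and 2, GAL7 and GAL1, lower. The feeds differed at 18 h in 61.9% of all genes by the same threshold. The feed effect at 9 h exceeded that at 18 h by 8.71 in GAL7, 7.00 in GAL1, 6.50 in GAL2, 6.32 in GAL10, 2.06 in GAL3 and 1.75 in GAL80, each with a limma adjusted p of 0.00324 or less for the difference between times, where 27.4% of all genes were called.

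Transporters of the multidrug families were called in both directions. YHK8, a presumed drug antiporter, was at 7.89 and 7.94 on hydrolysate, against 4.82 and 5.14 on sugar. FLR1, a plasma membrane exporter for which fluconazole is a known substrate, was at 12.77 and 13.09 on hydrolysate, against 10.28 and 10.41 on sugar. ATR1, an exporter named for resistance to aminotriazole, was at 11.33 and 11.75 on hydrolysate, against 9.24 and 9.38 on sugar. The feeds were apart on every array in these 3 genes, by 2.94 (SE 0.24), 2.59 (SE 0.25) and 2.23 (SE 0.25), and each kept its call without any single array at 9 h (limma adjusted p at most 0.044). SNG1, a membrane protein gene that protects against nitrosoguanidine, was at 10.90 and 11.18 on hydrolysate, against 9.25 and 9.21 on sugar, and rose by 1.81 with the same standing. SNQ2, an ABC transporter for aromatic toxins, rose by 1.28, the drug exporter QDR2 by 1.10 and YCF1, which moves glutathione conjugates into the vacuole, by 0.74. PDR10, another ABC transporter, fell by 1.62; it was at 9.39 and 10.73 on hydrolysate, against 11.72 and 11.63 on sugar. Of 27 multidrug transporters, SNG1 not counted, 6 were higher and 1 lower, against 5.77% and 3.91% of all genes. Their median difference was 0.29 beside 0.03 over all genes. The number higher was 3 without hydrolysate replicate 1, 8 without hydrolysate replicate 2, 4 without sugar replicate 1 and 3 without sugar replicate 2. PDR5, the best known of them, was at 11.86 and 11.42 on hydrolysate and 11.42 and 11.46 on sugar, and PDR12, the exporter of weak acid anions, at 12.97 and 13.60 on hydrolysate and 12.88 and 12.91 on sugar; neither passed the test.

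Among regulators, PDR1, PDR3, YAP1 and HAA1 were not called, and RPN4 was called higher. PDR1, a main activator of multidrug genes, had a difference of 0.52 (limma adjusted p = 0.0633), and PDR3, its relative, one of -0.27. RPN4, the activator of proteasome genes, rose by 0.77 and PDR16, a lipid transfer gene under PDR1, by 1.14. YAP1 itself was at 10.74 and 10.90 on hydrolysate, against 10.75 and 10.74 on sugar, and its difference of 0.07 did not pass the test. HAA1, the regulator of the response to weak acids, was at 10.41 and 10.73 on hydrolysate and 10.59 and 10.13 on sugar, with overlapping arrays.

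Among reductases, both old yellow enzymes and 2 of the 5 aryl alcohol dehydrogenases of the family were higher. OYE3, an NADPH oxidoreductase, was at 12.70 and 13.18 on hydrolysate, against 10.46 and 10.84 on sugar, a difference of 2.29 (SE 0.25, limma adjusted p = 0.00299). OYE2, its close relative, was at 13.77 and 13.33 on hydrolysate, against 11.07 and 11.48 on sugar. AAD4, a member of the aryl alcohol dehydrogenase family, was at 13.47 and 13.01 on hydrolysate, against 10.57 and 10.81 on sugar. No array of one feed reached into the range of the other in these genes. OYE2 rose by 2.28 but lost its call without hydrolysate replicate 1 or either sugar array (limma adjusted p up to 0.102), while AAD4 kept it (2.55; up to 0.0133). AAD6, of the same family, rose by 2.29 with hydrolysate arrays at 11.06 and 9.60, against 7.95 and 8.14 on sugar. AAD14 (0.33), AAD3 (0.04) and AAD10 (-0.12) of that family were not called. ADH6, an NADPH alcohol dehydrogenase that reduces furan and cinnamyl aldehydes, rose by 1.00; it was at 14.16 and 14.29 on hydrolysate, against 13.25 and 13.21 on sugar. BDH2, a butanediol dehydrogenase relative, fell by 1.72. GRE2 (0.45), ARI1 (0.08) and ADH7 (-0.39), reductases also known to act on furan aldehydes, were not called. Of 18 furan and other aldehyde reductases 4 were higher and 1 lower (median 0.15), and of 9 genes of the aryl alcohol and phenolic acid list 2 were higher (median 0.04). Of all genes, 5.77% were higher and 3.91% lower. Without hydrolysate replicate 1 or either sugar array, 1 member of each list stayed higher and none lower; without hydrolysate replicate 2, 3 reductases were higher and 4 lower, and 2 genes of the other list were higher.

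Yap1 targets moved in part. HBN1, a gene of the nitroreductase family, was at 12.86 and 12.72 on hydrolysate, against 11.02 and 10.84 on sugar, and rose by 1.87 (SE 0.17, limma adjusted p = 0.0013). GTT2, a glutathione transferase, rose by 1.33, YLR460C, of the quinone reductase family, by 1.28, TRR1, the cytosolic thioredoxin reductase, by 0.62 and GSH1, the first enzyme of glutathione synthesis, by 0.46. Of 28 Yap1 targets and regulators 5 were higher and none lower, against 5.77% and 3.91% of all genes, with a median of 0.11. The count was 2 without hydrolysate replicate 1, 5 higher beside 7 lower without hydrolysate replicate 2, and 1 without either sugar array. RCK1, a protein kinase gene of the oxidative stress response, went the other way: it was at 4.36 and 5.02 on hydrolysate, against 7.36 and 7.84 on sugar. Hydrolysate replicate 1 was below background, and the fall of 2.91 held without each array.

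Copper and zinc uptake genes were among the falls, and iron genes were called in both directions. CTR1, the high-affinity copper transporter of the plasma membrane, was at 9.48 and 8.42 on hydrolysate, against 12.07 and 12.09 on sugar. CTR3, the second high-affinity copper transporter, was at 12.49 and 11.70 on hydrolysate, against 13.90 and 13.95 on sugar. FRE1, a surface reductase of copper and iron, was at 9.34 and 8.90 on hydrolysate, against 10.52 and 10.53 on sugar. In these genes hydrolysate replicate 2 was the lower of the hydrolysate arrays and the sugar arrays were close to each other. They fell by 3.13 (SE 0.32), 1.83 (SE 0.26) and 1.41 (SE 0.20), limma adjusted p = 0.00192, 0.0124 and 0.013. CUP1-1, a metallothionein that binds copper, was at 12.76 and 12.43 on hydrolysate, against 10.27 and 10.80 on sugar, and rose by 2.06. MAC1, the activator of copper uptake genes, did not pass the test (0.29). Of all genes, 5.77% were called higher and 3.91% lower. Of 13 copper genes 1 was higher and 3 lower, and the 3 were 1 without either sugar array.

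ZRT1, the high-affinity zinc transporter, was at 8.44 and 8.46 on hydrolysate, against 11.01 and 10.35 on sugar, and fell by 2.23 (SE 0.25, limma adjusted p = 0.00346). ZRT2, the low-affinity one, fell by 1.28 and YKE4, a zinc transporter of inner membranes, by 0.94. FET4, which carries iron, copper and zinc at low affinity, was at 7.64 and 6.58 on hydrolysate, against 10.01 and 9.63 on sugar, and fell by 2.71. ZAP1, the activator of zinc uptake genes, was not called (-0.29). Of all genes, 3.91% were called lower and 5.77% higher. Of 14 zinc genes 3 were lower and none higher, and 1 was lower without any one of hydrolysate replicate 1 and the sugar arrays.

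Among iron genes, ARN1, a siderophore transporter, was at 12.20 and 12.31 on hydrolysate, against 10.11 and 10.23 on sugar, a difference of 2.08 (SE 0.22). FET3, the oxidase of high-affinity iron uptake, was at 10.98 and 10.94 on hydrolysate, against 9.52 and 9.48 on sugar, and FTR1, its partner permease, rose by 0.71. MRS4, a carrier of iron into mitochondria, rose by 1.16, and HMX1, the haem oxygenase, fell by 1.14. FIT2, a cell wall mannoprotein gene of iron uptake, was at 7.94 on hydrolysate replicate 1 and 11.23 on replicate 2, against 7.90 and 8.05 on sugar; it was the only gene at least 4-fold from sugar in replicate 2 and under 2-fold in replicate 1, and was singled out for that. Of 30 iron genes 6 were higher and 2 lower, FET4 among the lower ones, against 5.77% and 3.91% of all genes. Their median was 0.18. Without hydrolysate replicate 1 the counts were 3 and 1, without hydrolysate replicate 2 they were 5 and 4, without sugar replicate 1 they were 2 and 1, and without sugar replicate 2 they were 1 and 1.

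Other sugar genes were called in small numbers. Among all genes, 5.77% were called higher and 3.91% lower. HXT2, a high-affinity glucose transporter, was at 6.70 and 7.92 on hydrolysate, against 10.66 and 10.05 on sugar, and fell by 3.04 (SE 0.37, limma adjusted p = 0.00568; 0.0554 without sugar replicate 1). HXT1 (0.25) and HXT7 (-0.13, shared probe set), the low- and high-affinity transporters best known for their opposite answer to glucose, were not called. MIG2, a repressor that acts at high glucose, was at 8.49 and 7.76 on hydrolysate, against 6.87 and 6.67 on sugar, and rose by 1.36. Of 24 hexose transporter and glucose sensing genes these 2, HXT2 and MIG2, were called. Without hydrolysate replicate 1 or sugar replicate 2 the list had 1 lower, without sugar replicate 1 it had no call, and without hydrolysate replicate 2 it had 3 higher and 3 lower. The maltose genes lie in a run on chromosome II (802631 to 807105). MAL32, the maltase (shared probe set), rose by 1.54, MAL31, the maltose permease, by 0.82, and the small reading frame YBR298C-A between them was at least 3.03-fold higher, being below background on both sugar arrays. IMA1, the isomaltase, rose by 1.30. Of 11 genes for maltose and other disaccharides 3 were higher and none lower (median 0.21), and without sugar replicate 2 none was called.

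In glycolysis and fermentation, PFK27 rose by 1.23 and PFK26 fell by 0.98; both make an activator of phosphofructokinase. ADH1, the main fermentative alcohol dehydrogenase, was at 14.56 and 14.42 on hydrolysate, against 13.90 and 13.81 on sugar, and rose by 0.63. PDC6, a minor pyruvate decarboxylase, was at 8.19 and 11.33 on hydrolysate, against 12.84 and 12.87 on sugar, and fell by 3.10 (SE 0.79). PDC1, the main one, was not called (-0.14). XYL2, a xylitol dehydrogenase, was the only gene called of 17 for mannose and xylose entry and the pentose phosphate pathway; it was at 8.92 and 10.14 on hydrolysate, against 10.88 and 10.84 on sugar, a fall of 1.33. ALD6 (0.16), TKL1 (0.08) and ZWF1 (-0.24), which supply NADPH or feed the pentose phosphate pathway, were not called. PFK27, PFK26, ADH1 and PDC6 were the called genes of 26 in glycolysis and fermentation, 2 higher and 2 lower. Among all genes, 5.77% were called higher and 3.91% lower. Without hydrolysate replicate 2 the list had 2 higher and 4 lower, without hydrolysate replicate 1 it had 1 lower (PDC6, then at -1.52), and without either sugar array none.

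Few genes for mitochondrial translation and respiration were called, at shares near the 5.77% of all genes called higher for the ribosomal proteins and the respiratory chain. Of 68 mitochondrial ribosomal proteins, which translate the few messages of the organelle, 6 were higher and none lower, and the median difference was 0.67 beside 0.03 over all genes. That median was 1.11 for hydrolysate replicate 1 and 0.25 for hydrolysate replicate 2. MRP10, of the small subunit, was at 10.82 and 9.99 on hydrolysate, against 9.11 and 9.26 on sugar, and rose by 1.22. MRPS9 rose by 1.04, MRPL23 by 1.01 and MRPL44 by 0.94. The list had 54 members higher without hydrolysate replicate 2 and none called without hydrolysate replicate 1 or either sugar array. All 17 ATP synthase genes had positive differences, but 2, ATP14 (0.93) and ATP18 (0.71), were called. Among 24 respiratory chain genes CYC7, the minor cytochrome c (0.75), was called. CYC1, the main cytochrome c, was not (0.63, limma adjusted p = 0.133). HAP4, the activating subunit of the regulator of respiratory genes, was at 12.75 and 12.16 on hydrolysate, against 11.41 and 11.08 on sugar, and rose by 1.21. Of 25 tricarboxylic acid cycle genes 4 were higher, the succinate dehydrogenase genes SDH3 (0.67), SDH4 (0.62) and SDH2 (0.58) and the fumarase gene FUM1 (0.50), and none lower; without hydrolysate replicate 1 or either sugar array none of the 25 was called. Of 10 genes of the glyoxylate cycle and gluconeogenesis 3 were higher: REG2, a phosphatase subunit, by 0.96, PCK1 by 0.90 and FBP1 by 0.64. PCK1 and FBP1 make the enzymes that turn glycolysis round. Without hydrolysate replicate 2 that list had 2 higher and 4 lower, without either sugar array none was called, and its median was -0.30 for hydrolysate replicate 1 and 0.63 for hydrolysate replicate 2.

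**Figure D2:**
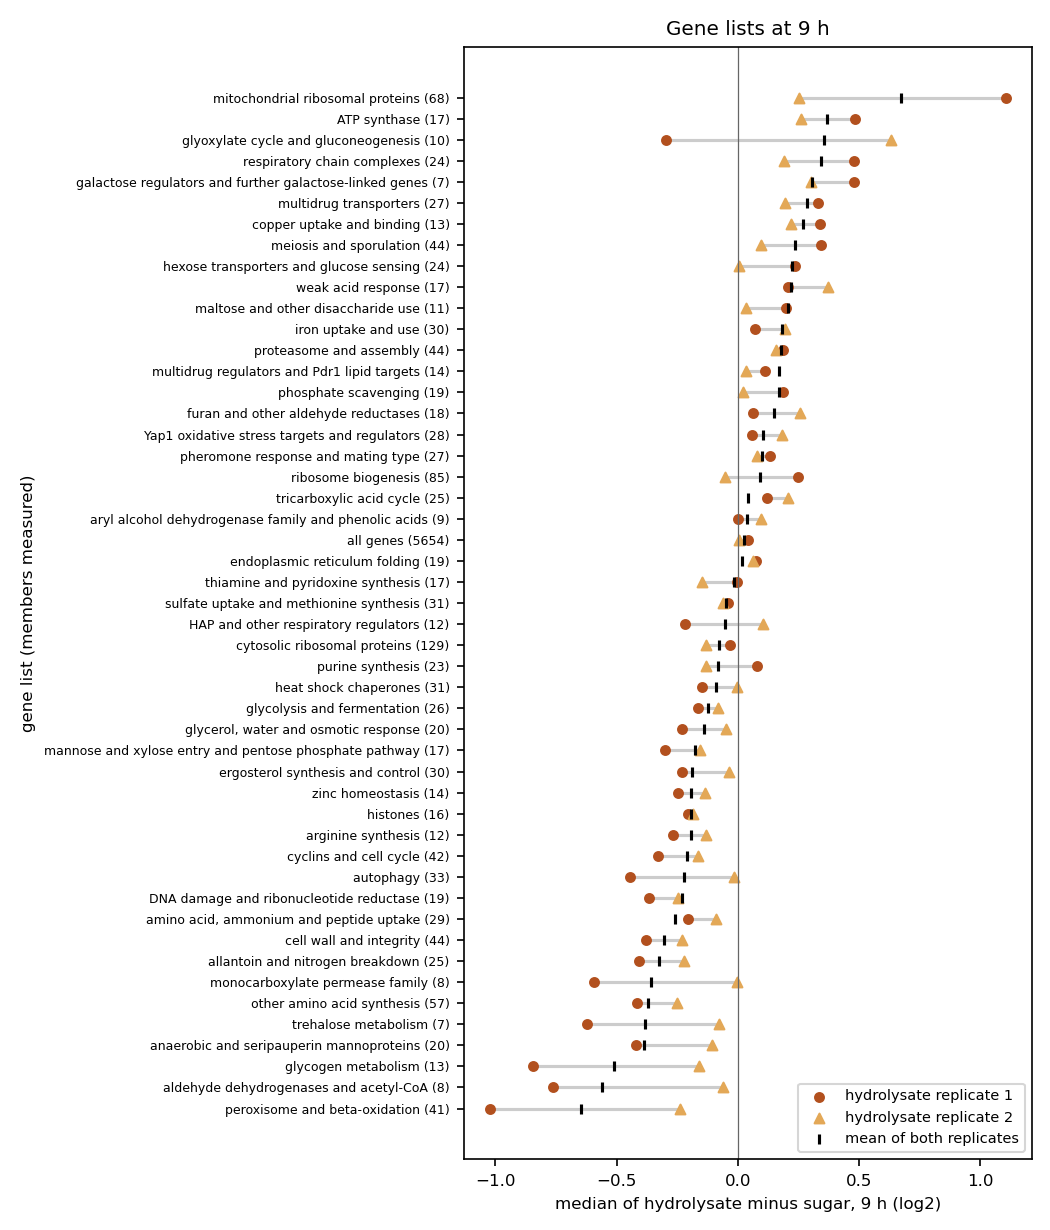
Median over the measured members of each gene list of the log2 difference between a hydrolysate array and the mean of the sugar arrays at 9 h, for hydrolysate replicate 1 (circles), hydrolysate replicate 2 (triangles) and for the mean of both (black bars); the number of measured members is in brackets, and the list for galactose uptake and conversion (median 7.66) lies off the scale and is not drawn. Replicate 1 lies farther from 0 than replicate 2 at both ends, as in mitochondrial ribosomal proteins (1.11 and 0.25) and in peroxisome and beta-oxidation genes (-1.02 and -0.24).

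Peroxisome and fatty acid genes were at the other end. Of 41 genes 6 were lower and 1 higher, against 3.91% and 5.77% of all genes, with a median of -0.65. It was -1.02 for hydrolysate replicate 1 and -0.24 for hydrolysate replicate 2. DCI1, an auxiliary gene of beta-oxidation, was at 7.46 and 8.59 on hydrolysate, against 9.69 and 9.72 on sugar, a fall of 1.68. PEX18, a receptor for import into the peroxisome, fell by 1.31 and FAA1, which activates fatty acids, by 0.88. POX1, the first enzyme of beta-oxidation, was at 9.40 and 12.11 on hydrolysate, against 12.53 and 12.42 on sugar, and FOX2, the next enzyme, at 9.56 and 12.08 on hydrolysate, against 12.82 and 12.75 on sugar; neither passed the test (-1.72 and -1.96, limma adjusted p = 0.158 and 0.0962). Without hydrolysate replicate 2 the list had 25 members lower and 3 higher, and without any one of the other arrays at 9 h none was called.

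The split between the hydrolysate arrays ran through the whole comparison. Hydrolysate replicate 1 was at least 2-fold from the mean of the sugar arrays in 672 genes and hydrolysate replicate 2 in 120, of which 104 were the same genes in the same direction and none in the opposite one. Replicate 1 was the farther of the hydrolysate arrays in 472 of the 547 called genes (86.3%) and in 75.4% of all genes. In 54 genes replicate 1 was at least 4-fold from sugar while replicate 2 was under 2-fold, 46 of them lower. Of the 10 genes named for the largest gaps between the hydrolysate arrays, 9 were at least 4-fold below sugar in replicate 1 and HXT13 was above it; replicate 2 was within 2-fold of sugar in all but ADY2 (-1.44) and SPS100 (-1.11). ADY2, an acetate transporter, was at 7.65 and 12.52 on hydrolysate, against 14.01 and 13.92 on sugar. ADH2, the alcohol dehydrogenase that consumes ethanol, was at 11.07 and 14.37 on hydrolysate, against 14.71 and 14.62 on sugar. CTA1, the peroxisomal catalase, was at 7.76 and 11.81 on hydrolysate, against 12.11 and 12.08 on sugar. In each case replicate 1 was far below the other 3 arrays. SPG4 and SPG1, genes of stationary phase, CIT3, a mitochondrial citrate synthase, YAT1, a carnitine acetyltransferase, and ACS1, the acetyl-CoA synthetase of non-fermentative growth, were likewise low in replicate 1, and none of these 8 genes was called.

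HSP30, a stress protein of the plasma membrane, was just outside the threshold. It was at 12.14 and 9.38 on hydrolysate, against 7.41 and 8.40 on sugar (2.86, SE 0.76, limma adjusted p = 0.0505). HXT13, a member of the hexose transporter family that is known to carry polyols, was at 8.70 and 5.10 on hydrolysate, against 4.51 and 4.33 on sugar, where it was below background. In all, 131 genes differed at least 2-fold without a call, 53 higher and 78 lower.

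**Figure D3:**
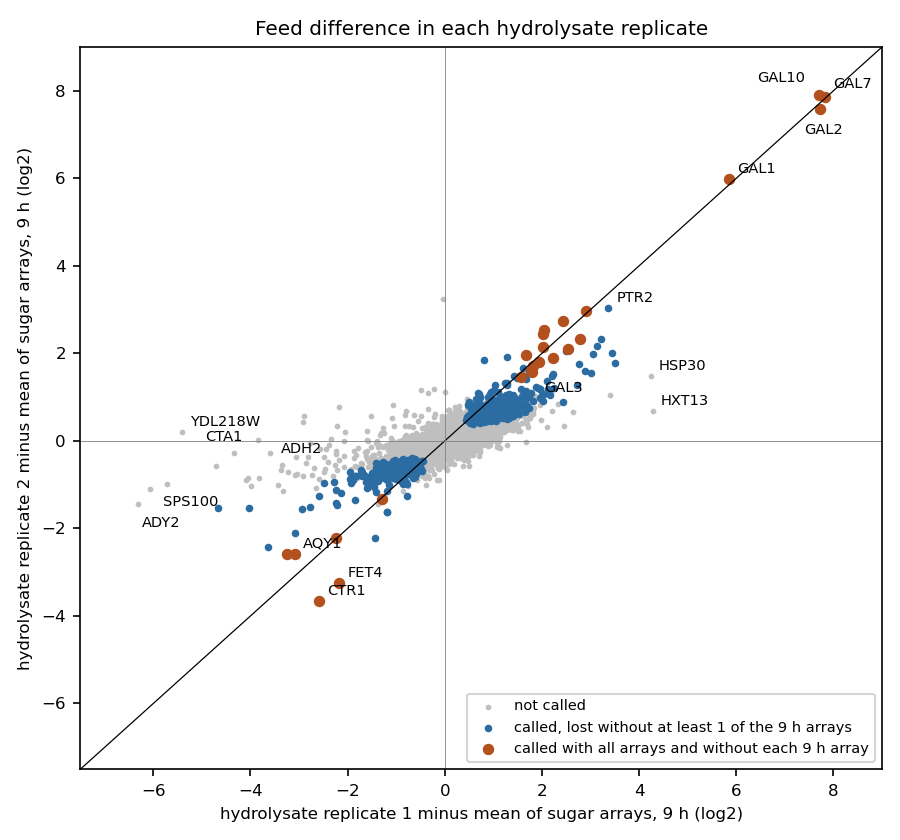
Log2 difference of each of the 5654 genes from the mean of the sugar arrays at 9 h, for hydrolysate replicate 1 (x axis) and hydrolysate replicate 2 (y axis); grey points were not called, blue points were called but lost the call without at least 1 array at 9 h, and orange points kept it; the line marks equal values. GAL7, GAL10, GAL2 and GAL1 lie on the line at the top right, while ADY2, SPS100, YDL218W, CTA1 and ADH2 lie far left of it, much lower in replicate 1 than in replicate 2.

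Genes for transport and use of nitrogen and sulphur are given singly. Their counts stand beside 5.77% of all genes called higher and 3.91% called lower. PTR2, the importer of small peptides, was at 11.50 and 11.17 on hydrolysate, against 8.39 and 7.88 on sugar, a difference of 3.20 (SE 0.40, limma adjusted p = 0.00678; 0.0716 without sugar replicate 2). CUP9, the known repressor of PTR2, fell by 0.80. AGP3, an amino acid permease, fell by 1.27 and DAL4, the allantoin permease, by 1.41. Of 29 uptake genes for amino acids, ammonium and peptides, PTR2 was higher and 3 were lower. None of the 29 was called without hydrolysate replicate 1 or sugar replicate 2, 1 was higher without sugar replicate 1, and 5 were higher and 7 lower without hydrolysate replicate 2. None of 25 genes of allantoin and nitrogen breakdown was called. SUL1, a high-affinity sulphate permease, was at 7.11 and 8.10 on hydrolysate, against 10.29 and 10.11 on sugar, and fell by 2.59. STR3, of methionine synthesis, fell by 1.02 and CBF1, a regulator of that pathway, by 0.90. They were the 3 lower of 31 genes of sulphate uptake and methionine synthesis, and none was called without hydrolysate replicate 1 or either sugar array. GCV2, a subunit of glycine decarboxylase, fell by 1.30. THI13, which makes the pyrimidine part of thiamine (shared probe set), was at 11.52 and 11.49 on hydrolysate, against 12.81 and 12.83 on sugar, a fall of 1.32 that held without each array.

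The proteasome genes that were called were all higher, and the cell wall genes that were called were all lower. Of all genes, 5.77% were higher and 3.91% lower. Of 44 proteasome and assembly genes 7 were higher and none lower, with UMP1, an assembly chaperone, at 1.02, ECM29 at 0.86, RPN9 at 0.68 and RPN8 at 0.65; the median was 0.18, and none was called without hydrolysate replicate 1 or sugar replicate 2. Of 44 cell wall genes 5 were lower and none higher. CWP1, a wall mannoprotein, was at 10.22 and 11.48 on hydrolysate, against 13.05 and 12.94 on sugar, a fall of 2.15. SHC1, an activator of chitin synthesis, fell by 2.26, YPS1, a surface protease, by 1.22 and SKN1, a glucan synthesis gene, by 0.87. Without either sugar array no cell wall gene was called, and without hydrolysate replicate 2 there were 9 lower. RNR3, a damage-inducible subunit of ribonucleotide reductase, fell by 1.85. HHO1, the linker histone, fell by 1.03, SPT10, a regulator of histone genes, by 0.96 and HPC2, a histone chaperone subunit, by 0.72, the 3 lower of 16 histone genes, none of which was called without hydrolysate replicate 1 or either sugar array. AQY1, a water channel of the plasma membrane, was at 7.77 and 8.28 on hydrolysate, against 10.76 and 10.95 on sugar, and fell by 2.83 (SE 0.28). Of 129 cytosolic ribosomal proteins RPS10B (-0.72) was called, and of 85 ribosome biogenesis genes none. Members of the lists for trehalose, arginine synthesis and anaerobic mannoproteins were not called either, so 5 of 49 lists had no call.

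Genes of uncertain or no known function were among the largest rises. YLR108C was at 11.71 and 11.27 on hydrolysate, against 9.10 and 9.26 on sugar, a difference of 2.31. YOR389W (1.69), YPL278C (1.76) and YPL277C (1.51) kept their calls without each array. The last 2 are neighbours on chromosome XVI with shared probe sets, and YPL277C was 0.70 where probe sets of a gene were averaged. MCH2, a relative of monocarboxylate permeases, rose by 2.73, AIM33 by 2.64 and FSH1, a serine hydrolase, by 2.24; their calls were lost without hydrolysate replicate 1 or either sugar array. YPR159C-A and YBL008W-A, small reading frames below background on both sugar arrays, rose by a factor of at least 5.51 and at least 4.23. HCM1, a transcription factor of the cell cycle, fell by 1.60, DBP1, an RNA helicase, by 1.66 and HEF3, an elongation factor, by 2.78, the last with hydrolysate arrays at 7.61 and 10.12, against 11.69 and 11.60 on sugar.

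The calls were also read by position and length. Within 20 kb of the outermost measured gene of a chromosome, 36 of 250 genes were higher (14.4%) and 12 lower (4.8%), against 287 of 5351 higher (5.36%) and 207 lower (3.87%) elsewhere. By length, the median difference was 0.16 in the lowest 25% of genes and -0.04 in the top 25%. Both are descriptions without a test. SNZ3, a pyridoxine synthesis gene (shared probe set), and AAD6 lie near the end of chromosome VI and were both higher (1.61 and 2.29). They are next to each other among the measured genes only, and reading frames that were not measured can lie between them. YHK8 and FSH1 on chromosome VIII were both higher too (2.94 and 2.24).

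Set beside 18 h, the comparison at 9 h had fewer calls, 547 against 3502 (61.9%), with the same number of arrays. Of the 547, 412 were called in the same direction at 18 h (75.3%), 22 in the opposite direction (4.02%) and 113 not at all. The test of the difference between the feed effects called 1548 genes (27.4%), of which 166 were among the 547. It called 16 of the 24 genes that held without each array. Those 24 were chosen for their difference at 9 h, which is part of the tested value. Their share therefore cannot be set against the 27.4%. Beside the galactose genes, SNG1 (1.81 at 9 h, 0.02 at 18 h), AAD4 (2.55 and 0.52), FLR1 (2.59 and 1.26), THI13 (-1.32 and 0.05) and AQY1 (-2.83 and -0.06) had larger feed effects at 9 h (limma adjusted p between 0.00237 and 0.0263 for the difference between times). HBN1 (1.87 and 3.03) and CTR1 (-3.13 and -4.59) had larger ones at 18 h (limma adjusted p = 0.011 and 0.0416). OYE3 (2.29 and 2.39), YHK8 (2.94 and 2.21), RCK1 (-2.91 and -3.23) and ZRT1 (-2.23 and -1.61) were not shown to differ between the times.

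**Figure D4:**
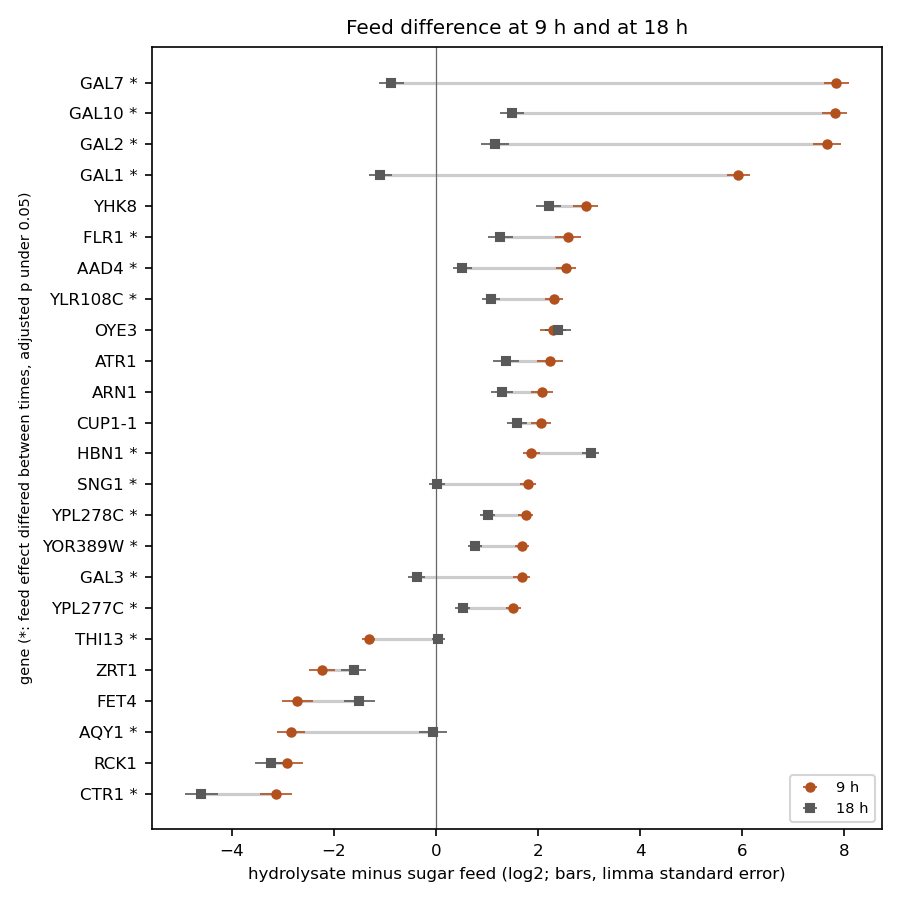
Log2 difference, hydrolysate minus sugar feed, at 9 h (circles) and 18 h (squares) for the 24 genes called at 9 h with all arrays and without each array at 9 h, with limma standard errors as bars; a star marks a feed effect that differed between the times at a limma adjusted p under 0.05. The galactose genes fall back to between -1.08 and 1.49 at 18 h, while OYE3, YHK8 and RCK1 keep similar values at both times.

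The levels behind these tests differed from gene to gene. AQY1 averaged 8.02 ± 0.36 on hydrolysate and 10.86 ± 0.14 on sugar at 9 h (SD, n = 2 each), and 8.64 ± 0.47 on hydrolysate and 8.70 ± 0.07 on sugar at 18 h, after 9.03 ± 0.41 at the start. SNG1 averaged 11.04 ± 0.20 on hydrolysate and 9.23 ± 0.03 on sugar at 9 h, and 11.18 ± 0.04 on hydrolysate and 11.15 ± 0.03 on sugar at 18 h, so its hydrolysate level differed little between the times while its sugar level did. OYE2 averaged 13.55 ± 0.31 on hydrolysate and 11.28 ± 0.29 on sugar at 9 h, but 12.43 ± 0.63 on hydrolysate and 6.73 ± 0.44 on sugar at 18 h, and the effect at 9 h minus that at 18 h was -3.43. That value was -3.96 in TKL1 and -4.13 in ALD6, neither called at 9 h, and -2.87 in FBP1. PTR2 averaged 11.34 ± 0.24 on hydrolysate and 8.13 ± 0.37 on sugar at 9 h, and 12.01 ± 0.30 on hydrolysate and 11.93 ± 0.24 on sugar at 18 h, after 6.98 ± 0.97 at the start.

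**Figure D5:**
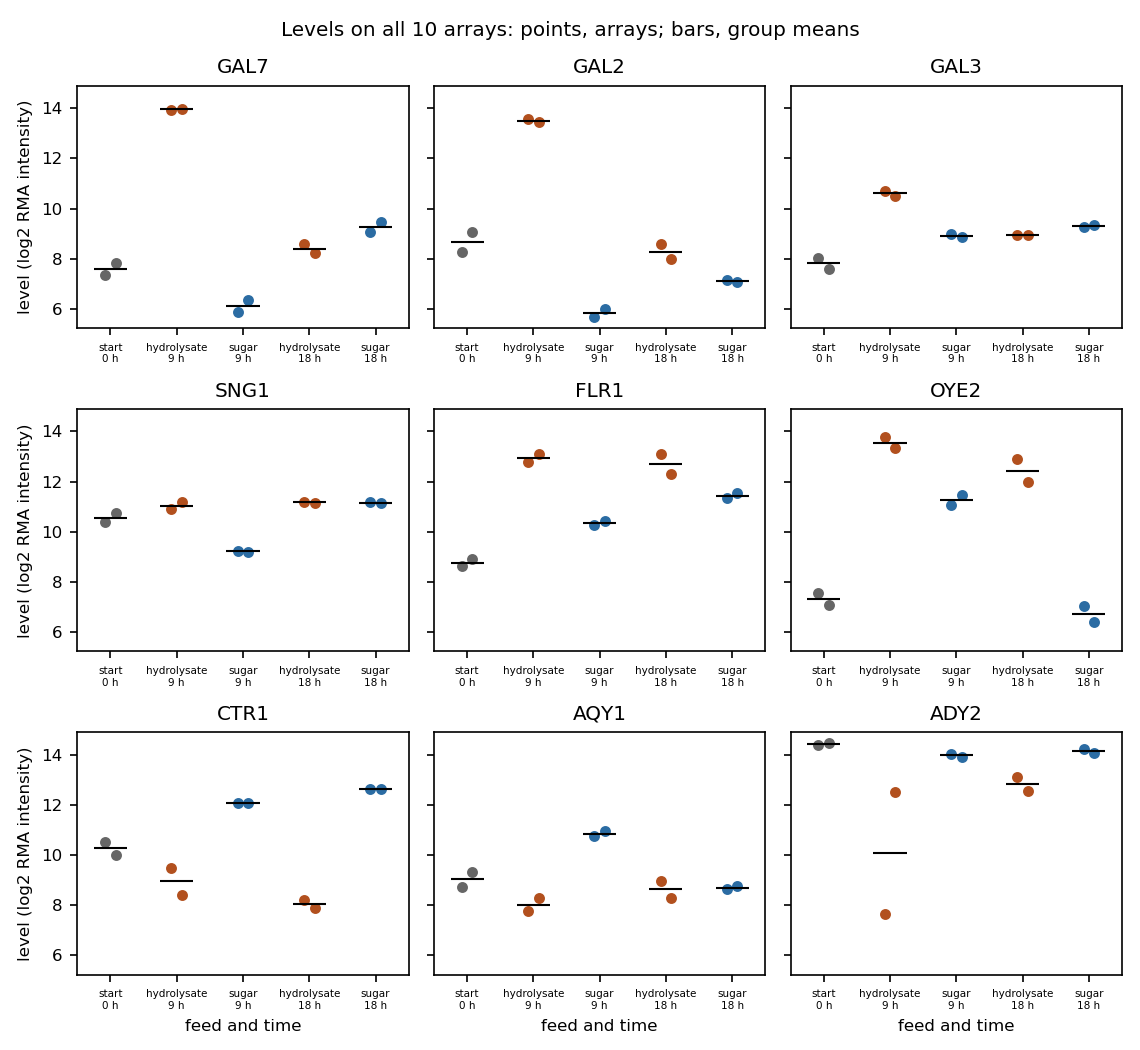
Level (log2 intensity) of 9 genes on all 10 arrays, by feed and time: points are arrays, bars are group means, orange marks hydrolysate, blue sugar and grey the start. GAL7 and GAL2 stand above 13 at 9 h of hydrolysate alone, SNG1 is low at 9 h of sugar, OYE2 is low at the start and at 18 h of sugar, and ADY2 is low on 1 hydrolysate array at 9 h.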

How the data were processed

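Total RNA was extracted with Trizol and labelled with biotin in one round of amplification, per the labels' protocols. No array type is named there. The log2 intensities deposited by the authors had been through robust multi-array averaging (RMA), per the file headers. R 4.2.1, affy 1.74.0 and limma 3.52.4 are named, without role or order, in the submitters' processing notes. Of 5811 S. cerevisiae probe sets, 5703 carried a gene name, and they gave 5654 genes, 47 of them with more than 1 probe set and 112 with a probe set shared with a copy. Fold changes and calls in the authors' deposited table were not used, nor were that table's 10 per-array columns, whose headers give 17 h for the groups that the labels place at 18 h; the labels' time is used.

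A single fit of all 10 arrays in 5 groups gave the feed differences (lmFit and eBayes of limma 3.58.1, R 4.3.3), with 5 residual and 3.49 prior degrees of freedom. Adjusted p-values are those of Benjamini and Hochberg, taken across all 5654 genes. The fit was also run on simulated data with the same spread of a gene in every group. That run cannot show how the fit handles the unequal spread of the real groups. Where a group lay below background on both arrays, a fold is given as a lower limit. Same-numbered hydrolysate and sugar arrays at 9 h did not deviate together (correlation -0.163 over genes), so no pairing was used.

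Named genes were the 25 largest rises and the 25 largest falls called, up to 4 called members of each of 49 gene lists, the 10 largest differences not called, the 10 largest gaps between the hydrolysate arrays, the genes called without each array at 9 h, and a set of key genes; a gene outside the rule is said to be so. The members and lists were chosen with earlier results of these data known. Alternatives were other priors, blocks, scalings, filters, a mean over probe sets, stricter thresholds and each array left out. The precision is limited by the 2 arrays of each group.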

Additional observations from a re-analysis of the deposited data

Results flagged for a closer look

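Of 176 named genes, 62 had a feed effect at 9 h that differed from the one at 18 h in limma's test of the difference. The same test called 27.4% of all genes. Many of the named genes were picked for a large difference at 9 h, which is part of the tested value, so the 2 shares cannot be compared. The values here are the log2 feed effect at 9 h minus that at 18 h. Both effects share one fit and use different arrays.

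Among genes higher on hydrolysate at 9 h, the effect was larger there than at 18 h in the galactose genes GAL7 (8.71), GAL1 (7.00), GAL2 (6.50), GAL10 (6.32), GAL3 (2.06) and GAL80 (1.75). It was also larger in the aryl alcohol dehydrogenase genes AAD6 (3.27) and AAD4 (2.03) and the peptide importer gene PTR2 (3.12). The membrane genes SNG1 (1.79), SNQ2 (1.76) and FLR1 (1.32) followed, with the cyclin gene PCL9 (1.83), the sporulation genes SPO75 (1.91) and MEK1 (1.55), and BTN2 (1.35). Smaller gaps were seen in YLR108C (1.23), PFK27 (1.19), ARE2 (1.09), YPL277C (0.99), MRPS9 (0.94), YOR389W (0.92), MRS4 (0.83), ARO7 (0.82), ADH1 (0.81) and YPL278C (0.74).

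Among genes higher on hydrolysate at 9 h, the effect was smaller there than at 18 h in the reductase genes OYE2 (-3.43), ADH6 (-1.91) and HBN1 (-1.16), and in the gluconeogenesis genes FBP1 (-2.87) and PCK1 (-2.29). The disaccharide genes IMA1 (-2.78) and MAL32 (-0.92), the iron oxidase gene FET3 (-2.26), PDR16 (-2.14), FSH1 (-2.07) and the glycerol importer gene STL1 (-2.01) belonged to the same group. So did HAP4 (-1.65), ACH1 (-1.59), TRR1 (-1.27), TYR1 (-1.10) and FUM1 (-0.67). Of genes not called at 9 h, ALD6 (-4.13), TKL1 (-3.96), CYC1 (-2.97) and PDR12 (-2.31) had smaller values there, and ZWF1 (1.50), HAA1 (1.28) and ZAP1 (0.80) larger ones.

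Among genes lower on hydrolysate at 9 h, the difference was more negative there than at 18 h in AQY1 (-2.77), GCV2 (-2.28), DAL4 (-1.61), SNZ1 (-1.42), THI13 (-1.37) and RPS10B (-1.33). It was more negative at 18 h in BOP2 (1.84), AGP3 (1.58), CTR1 (1.46), GSY1 (1.38), CRR1 (1.31), HHO1 (1.26) and REC107 (1.15).

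Outside the gene tests, the 24 ribosomal RNA probe sets averaged 7.25 and 6.61 on the hydrolysate arrays at 9 h, against 5.84 and 6.02 on the sugar arrays, a difference of 1.00 (log2). The part of this signal in the gene results was not tested.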

How the results depend on the processing

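The number of genes called at 9 h depended on the arrays and the scaling. Against 547, it was 23 in a fit of the 4 arrays at 9 h alone, 226 with spike-in centring, 185 with a minimum of 2-fold and 31 at an adjusted p under 0.01. Leaving out 1 array gave 30 to 1550 calls: at 9 h, 48 without hydrolysate replicate 1, 1550 without hydrolysate replicate 2, 39 without sugar replicate 1 and 30 without sugar replicate 2. It gave 293 or 137 when an array at 18 h of hydrolysate or of sugar was omitted, and 761 when one of the start was. The array left alone in its group was taken to vary like the other groups. The test of the difference between times, with 1548 calls, gave 978 with spike-in centring and 654 to 1889 with 1 array left out. The replicate block gave 337 calls at 9 h and 1329 for the difference between times, and a crossed pairing of the replicate numbers, chosen after seeing the data, gave 631 calls at 9 h. The cause of these changes was not tested. The other alternatives gave 539 to 692 calls at 9 h. The 24 genes were chosen by their calls without each array at 9 h, so those 4 of the 20 alternative fits could not lose them. Under the other fits 20 of the 24 kept the call. CTR1, CUP1-1, FET4 and ZRT1 lost it in the fit of 4 arrays alone (limma adjusted p = 0.0527, 0.0527, 0.0988 and 0.0508). Of 3520 values of named genes under alternatives, 2748 kept direction and side of the threshold, 730 lost the call, 25 gained one and 17 changed sign, all 17 in genes not called. HXT1 became -0.063 with quantile normalization, and LAP3 became 0.0014 with spike-in centring. With 1 array left out, the differences ranged from -2.91 to 0.42 in YAT1, -5.41 to 0.20 in YDL218W, -3.85 to 0.025 in CIT3, -2.89 to 0.57 in ERR3, -0.48 to 1.15 in ICL1, -0.26 to 0.012 in HXT7, -0.24 to 0.035 in HSP12, -0.14 to 0.31 in ARI1, -0.0030 to 0.15 in YAP1, -0.06 to 0.34 in PGM2, -0.090 to 0.082 in LAP3, -0.018 to 0.42 in PDR5 and -0.018 to 0.44 in HAA1. The sign turned without hydrolysate replicate 1 in 8 of these genes.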

Other observations

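Several called genes outside the naming rule were looked at after their values were seen, and are given as values only. FDH1, the formate dehydrogenase gene, was at 14.49 and 14.54 on hydrolysate, against 13.11 and 12.66 on sugar, a difference of 1.63 (limma adjusted p = 0.0161). Of single genes that serve expression of the mitochondrial genome, RPM2, a subunit of mitochondrial RNase P, was higher by 1.36, AEP2 by 1.18, PET309 by 1.09, MRF1 by 1.02, MSS116 by 1.01 and CBP1 by 0.99. They were picked for their values, and how many such genes did not change was not counted.

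SSU1, the sulphite exporter gene, was at 9.84 and 10.91 on hydrolysate, against 11.65 and 11.76 on sugar, and fell by 1.33. JLP1, which releases sulphite from sulphonates, fell by 1.25, and PCA1, a cadmium exporter gene next to SUL1, by 0.82. The arsenate reductase gene ARR2 (1.12) and the arsenite exporter gene ARR3 (0.98), neighbours at the end of chromosome XVI, rose.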
